A study of Homo sapiens with 6 samples.

Results

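The small noncoding RNAs of the nucleus were examined in ES-2 cells, an established human line derived from an ovarian clear cell carcinoma, after transfection with a mir-22 mimic. Members were taken by name from the array annotation: small nucleolar RNAs (symbols starting SNORD or SNORA), Cajal body RNAs (SCARNA), spliceosomal RNAs (RNU), SNAR and RN7S RNAs, and RMRP, RPPH1 and TERC, with genes that merely carry such RNAs in their introns left out. The rule found 74 probes for 72 genes among 48803 probes, which name 18852 genes, and 53 of them, for 52 genes, had a detection score above 0.99 on at least 3 of the 6 arrays. The rule matched no probe for RMRP. Of the other 21 probes, 19 were detected on no array.

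The study compared 3 arrays of cells that received a mir-22 mimic at 65 nM with 3 arrays of cells that received a negative control mimic modelled on microRNAs of the worm C. elegans. Cells of both groups were ES-2 cultures of 1 line, transfected with the same kind of lipid reagent and harvested 48 hours later, and total RNA was extracted with a kit meant to retain small RNAs. The dose of the control mimic is not stated. The arrays of a group are called biological replicates without a word on separate cultures or days, and a p-value here can speak only of how far arrays of a group lie apart, which may be technical. Values are normalised log2 intensities, and differences between groups are mir-22 mimic minus control mimic. They are relative to all RNA on an array, so fewer cells that make an RNA and less of it per cell cannot be told apart.

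Small nucleolar RNAs guide chemical changes on other RNAs. Box C/D RNAs direct methylation of ribose and box H/ACA RNAs direct the conversion of uridine to pseudouridine, chiefly on ribosomal RNA, while Cajal body RNAs do the same for spliceosomal RNAs. In human cells most are cut out of introns, often those of ribosomal protein genes, and then protected by a shell of proteins. Other members have genes of their own, such as the RNA parts of RNase P, telomerase, the signal recognition particle and the minor spliceosome. Most lack the poly(A) tail of a messenger RNA. The sources used here do not state how the labelling reaction primed them, and the signal of a probe inside an intron cannot be told apart from that of unspliced host RNA.

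The treatment was meant to raise the activity of a microRNA, which was not measured here. Its arms are shown because the seed decides which messages it recognises. The labels do not name the arm that the mimic delivered. Capitals mark bases 2 to 8, the seed (RefSeq, GRCh38.p14, minus strand of chromosome 17).
hsa-miR-22-3p, chr17:1713914-1713935: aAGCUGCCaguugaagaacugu
hsa-miR-22-5p, chr17:1713952-1713973: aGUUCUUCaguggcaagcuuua

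Between 17465 and 19244 of all probes were detected per array. Over the 18732 probes kept by the same detection rule, arrays of the mimic group correlated at 0.995 to 0.998 and control replicates 1 and 2 at 0.997, while control replicate 3 correlated with them at 0.980 and 0.981 and stood apart. The keratin genes KRT7, KRT8 and KRT18 and the mesenchymal gene VIM were detected on 6 of 6 arrays, and the epithelial genes EPCAM, CDH1 and KRT19 and the clear cell carcinoma genes NAPSA and PAX8 on none, so the defining clear cell markers measured here were absent or, for ANXA4, detected on 3 arrays. Of markers of other cells, PTPRC, CD3E, VWF, HBB and ALAS2 were detected on none, and CD14, PECAM1 and CDH5 on 6 arrays. None of these markers was called different between the groups (limma).

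Of the 53 kept probes 49 had a log2 fold change above 0, a share of 92.5% where 47.3% of all kept probes did, and the median was 0.50 against -0.01 over all kept probes. After adjustment over all 18732 probes, 12 of the 53 (22.6%) were called higher and 0 lower in limma's moderated test at an adjusted p of 0.05. The background was 3.04% called higher and 3.42% called lower. The 12 include SNORD101, which passed the detection rule through the mimic arrays alone. At an unadjusted p under 0.05, 37 of the 53 members were higher and 0 lower, against 10.5% and 12.7% of all kept probes. Beyond the 12 called, 11 of the 53 members had a positive fold change and an adjusted p between 0.05 and 0.1 (background 2.44%). The lists and members were chosen with earlier results of these data known, so these shares describe the members and are no independent test.

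**Figure D1:**
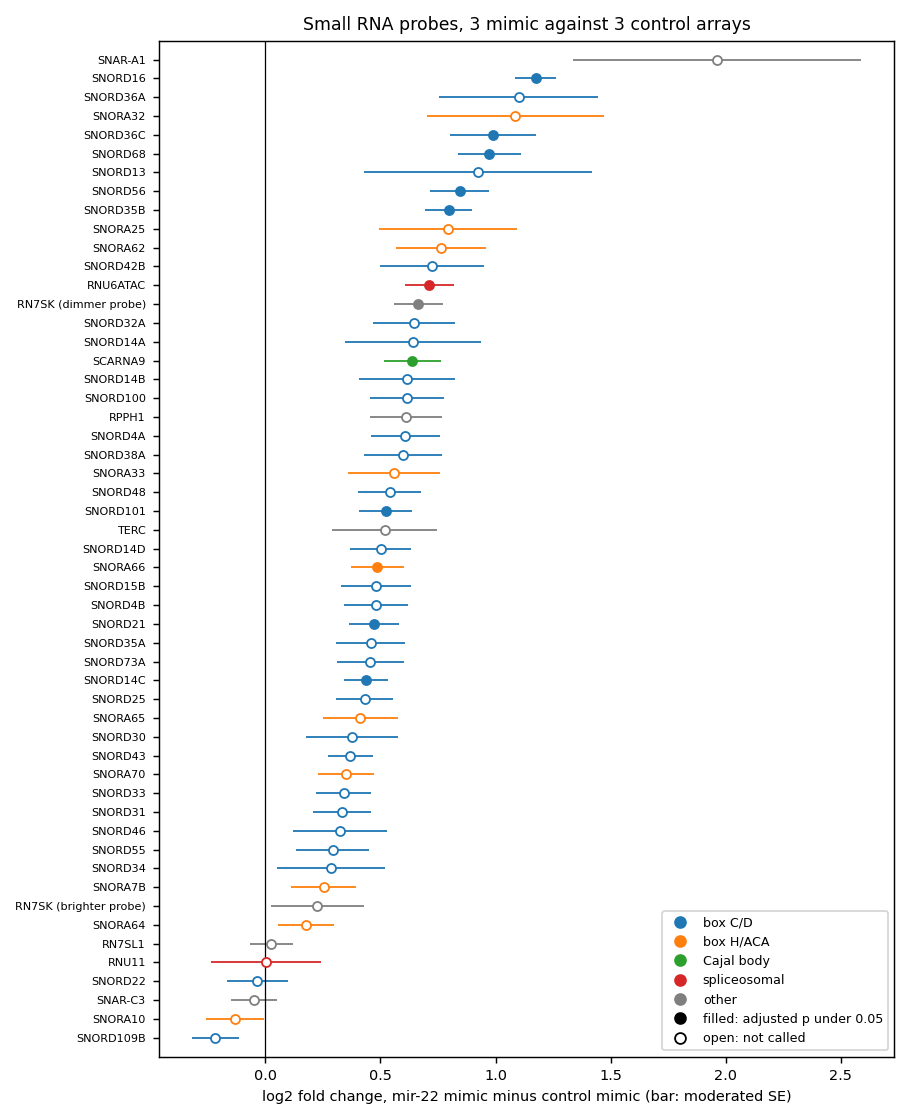
Log2 fold change of each of the 53 kept small RNA probes, mir-22 mimic minus control mimic, with limma's moderated standard error as a bar and 3 arrays per group. Colours give the class, and filled points are the 12 probes called higher. Points lie right of 0 for 49 probes, from -0.22 for SNORD109B to 1.96 for SNAR-A1.

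The mimic arrays lay above every control array for 36 of the 53 probes (67.9%, background 13.7%) and below every control array for 1 (background 17.5%). Of the 36, 24 were not called. The spread was wider among controls: the median SD over the members was 0.11 in the mimic group and 0.22 in the control group, and the control SD was the larger for 42 members (79.2%), as for 72.1% of all kept probes. The median moderated SE of a member's fold change was 0.15, against 0.12 over all kept probes.

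**Figure D2:**
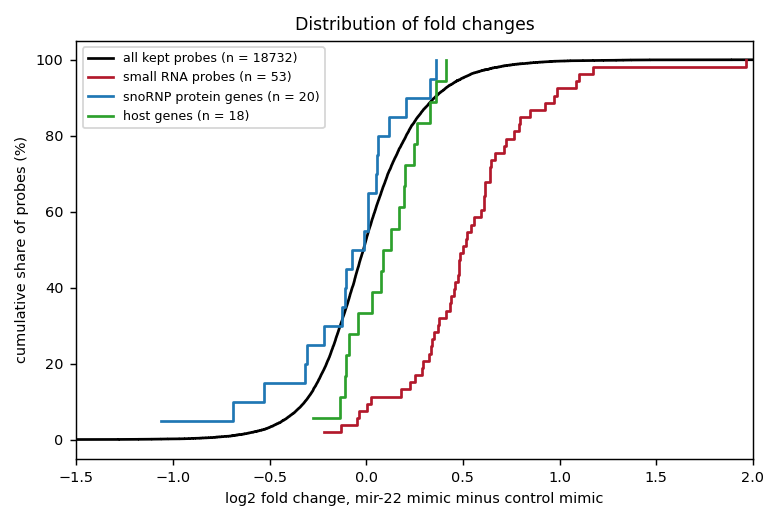
Cumulative share of probes by log2 fold change, mir-22 mimic minus control mimic, for all kept probes, the 53 small RNA probes, the genes of small nucleolar RNP proteins and the genes that hold the small RNAs in introns. The small RNA curve lies to the right with a median of 0.50, and the medians of the other sets are -0.01, -0.04 and 0.11.

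The number of calls depended on the arrays and settings used. Without control replicate 3, the array that stood apart, 31 members were called higher, the 12 among them (background 7.67%). Without mimic replicate 1, 2 or 3 there were 2, 1 and 2 (backgrounds 0.406%, 0.411% and 0.593%), and without control replicate 1 or 2 there were 7 and 7 (1.52% and 1.08%). The median over the members moved little, between 0.49 and 0.54 in these 6 cases. With the replicate number as a block 24 members were called higher, again with the 12 among them (background 4.12%). The labels do not say that a number marks pairs, and the values do not tell numbers 1 and 2 apart. Calls with the block, here and below, rest on that unstated pairing. The other 12 called with the block were SNORD4A, SNORD4B, SNORD14A, SNORD32A, SNORD36A, SNORD38A, SNORD42B, SNORD48, SNORD100, SNORA62, SNORA65 and RPPH1, at adjusted p-values of 0.0118 to 0.0460. The count was 8 with median scaling (2.42%), 8 of all 74 with no filter (1.11%) and 41 with array quality weights (11.7%), which gave control replicate 3 little weight. It was 11 without background correction (3.42%), 10 with another background model (3.46%), 11 from the authors' value table (3.41%), 12 of the members detected on 6 arrays (3.67%), 12 with a detection score above 0.95 (2.73%) and 11 with an intensity trend (3.06%). No member was called lower in any of these fits, in which between 0.31% and 11.8% of all probes tested were.

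Control replicate 3 was not low throughout. It was the lowest control for 24 of the 53 members, a larger share than the 33.1% of all kept probes that had it lowest. For 23 members it was the highest control and for 6 the middle one.

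Box C/D RNAs made up 50 of the 74 probes and 33 of the kept ones. Their median log2 fold change was 0.50, with 8 called higher and 0 lower, and the mimic arrays lay above every control array for 26. Over all kept probes the shares were 3.04%, 3.42% and 13.7%. The largest called rise was in SNORD16. Its log2 values were 9.04, 9.03 and 9.01 on mimic replicates 1, 2 and 3 and 7.91, 7.82 and 7.82 on the controls. Arrays of a group differed by far less than the groups did. The probe rose 2.26-fold, or by 1.17 ± 0.09 in log2 units with limma's moderated SE (adjusted p = 0.00216), and SNORD16 was the single member whose call held whichever array was left out.

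SNORD68, the brightest kept probe of the class, gave 8.94, 8.98 and 9.22 with the mimic and 8.13, 8.25 and 7.84 with the control mimic. The lowest mimic array was above the highest control, and the probe rose by 0.97 ± 0.14 (adjusted p = 0.00839). SNORD56, which lies within NOP56, the gene of a core protein of box C/D particles, gave 8.32, 8.11 and 8.19 against 7.26, 7.23 and 7.60. Its rise was 0.84 ± 0.13 (adjusted p = 0.0110). Control replicate 3 was the highest control for SNORD56 and the lowest for SNORD68, so the array that stood apart did not shift both the same way. SNORD35B gave 6.51, 6.63 and 6.61 against 5.70, 5.93 and 5.74, a rise of 0.80 ± 0.10 (adjusted p = 0.00715). Its call was lost without mimic replicate 2 (adjusted p = 0.0585, the highest of the alternatives, whose lowest was 0.000265), and those of SNORD68 and SNORD56 without any 1 mimic array.

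SNORD36C gave 6.75, 6.38 and 6.41 with the mimic and 5.41, 5.91 and 5.24 with the control mimic. The groups were apart and the rise was 0.99 ± 0.18 (adjusted p = 0.0222). SNORD36A, a related RNA in another intron of the same gene, gave 7.91, 7.73 and 7.45 against 6.95, 7.15 and 5.69, with control replicate 3 far below the others. Its difference was as large, at 1.10 ± 0.35, but it was not called (adjusted p = 0.101), whereas it was with the replicate block (adjusted p = 0.0297). Without control replicate 3 it was 0.65 ± 0.14 and called (adjusted p = 0.0149). RNAs that share a family number are similar in sequence, so their probes may each catch more than 1 copy.

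The remaining called box C/D members changed less. SNORD21 gave 7.49, 7.49 and 7.61 against 6.90, 7.06 and 7.20, a rise of 0.47 ± 0.11 (adjusted p = 0.0431). SNORD14C, of a family that takes part in the processing of 18S ribosomal RNA, gave 8.39, 8.54 and 8.58 against 8.05, 8.11 and 8.05, a rise of 0.44 ± 0.10 (adjusted p = 0.0380). Neither set of arrays overlapped. SNORD101 was detected on the mimic arrays and on no control array, with 5.14, 4.91 and 4.80 on the mimic arrays and 4.45, 4.48 and 4.35 on the controls. Limma's call (adjusted p = 0.0377) used control values below detection and does not test the size of the rise. That size has only a bound, at least 1.15-fold, set against the lowest detected signal where that exceeds the probe's own. SNORD101 also entered the kept set through the mimic arrays alone, the only member to do so. It therefore had to differ, and its call adds no support. The calls of SNORD21, SNORD14C and SNORD101 held in 1 of the 6 cases of leaving out an array, without control replicate 3.

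**Figure D3:**
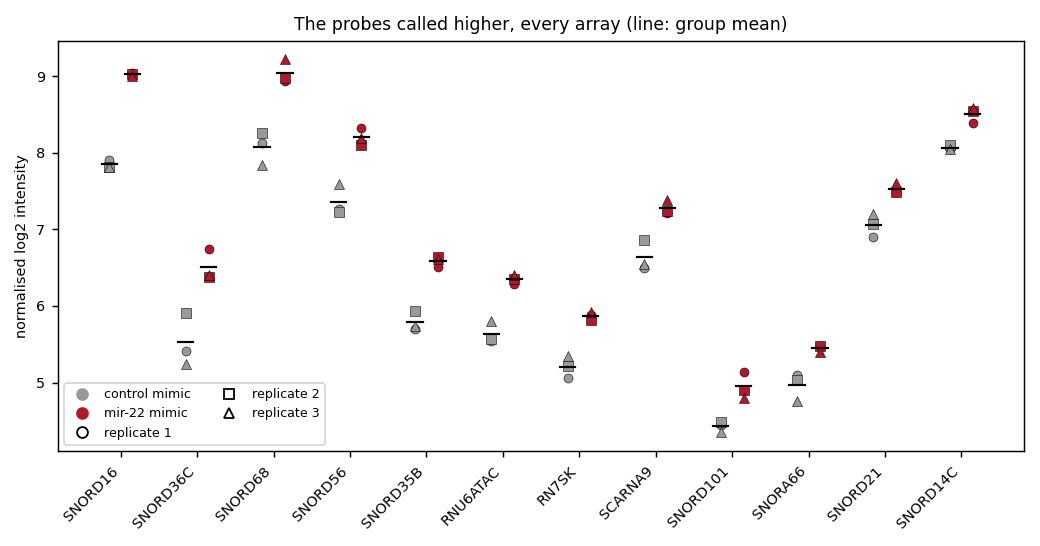
Normalised log2 intensity of the 12 small RNA probes called higher, for each of 3 control mimic arrays (grey) and 3 mir-22 mimic arrays (red), with a line at the group mean and a marker shape per replicate number. In each of the 12 the lowest mimic array lies above the highest control array.

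Members of the box C/D class that were not called reached from -0.22 to 1.10. Other RNAs of the SNORD14C family had higher fold changes and were not called. SNORD14D was at 0.50 ± 0.13, SNORD14B at 0.62 ± 0.21 and SNORD14A at 0.64 ± 0.30, with adjusted p-values of 0.0619, 0.122 and 0.242. With the replicate block SNORD14A was called (adjusted p = 0.0197). On control replicate 3 SNORD14A was at 5.80 and SNORD14B at 4.26, under the 6.87 and 6.64, and 5.08 and 5.02, of the other controls, while SNORD14D was highest there at 7.67. SNORD4A (0.61 ± 0.15, adjusted p = 0.0527), SNORD48 (0.54 ± 0.14, 0.0557) and SNORD100 (0.62 ± 0.16, 0.0607) lay closest to the threshold, and were called with the replicate block (adjusted p = 0.0226, 0.0288 and 0.0348).

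The box C/D member with the lowest value was SNORD109B, of the imprinted cluster on chromosome 15. It gave 4.96, 4.94 and 5.09 with the mimic and 5.30, 5.11 and 5.22 with the control mimic. The mimic arrays lay below every control, the only member for which they did, and the difference of -0.22 ± 0.10 was not called (adjusted p = 0.245). SNORD22, which in frogs is needed for processing of 18S ribosomal RNA, was at -0.03 ± 0.13 with overlapping groups. The other 6 probes of the chromosome 15 cluster, for SNORD64, SNORD107, SNORD108, SNORD116-2 and SNORD116-4, were not detected on any array.

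SNORD13, which guides acetylation of 18S ribosomal RNA and has a gene of its own, stood out for 1 array. Its values were 9.15, 8.79 and 8.72 with the mimic and 6.60, 8.57 and 8.72 with the control mimic, with control replicate 1 far below the rest. The groups touched without overlapping, since control replicate 3 lay just under mimic replicate 3. The difference was 0.92 ± 0.49 and not called (adjusted p = 0.308), and without control replicate 1 it was 0.24 ± 0.16 (adjusted p = 0.385).

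Box H/ACA RNAs had 10 probes, and 10 passed the detection rule. Their median was 0.45, with 1 called higher and 0 lower, and the mimic arrays lay above every control array for 5. The shares of all kept probes were 3.04%, 3.42% and 13.7%. The called member, SNORA66, gave 5.47, 5.47 and 5.40 with the mimic and 5.10, 5.03 and 4.76 with the control mimic, where it was detected on 2 of 3 arrays. The rise was 0.49 ± 0.11 (adjusted p = 0.0453), and the call held in 1 of the 6 cases of leaving out an array, without control replicate 3. SNORA32 had the largest difference of the class. It gave 6.99, 6.80 and 6.70 against 6.40, 6.14 and 4.70, where control replicate 3 again lay far below, and the difference of 1.09 ± 0.39 was not called (adjusted p = 0.138). Without control replicate 3 it was 0.56 ± 0.12 and called (adjusted p = 0.0139).

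SNORA10 was the brightest box H/ACA probe and also the one with the lowest fold change. Its values were 8.77, 8.63 and 8.76 with the mimic and 8.71, 8.76 and 9.09 with the control mimic, so the groups overlapped, and the difference was -0.13 ± 0.12 (adjusted p = 0.568). SNORA64, from an intron of the same gene, was at 0.18 ± 0.12. The others ran from 0.25 for SNORA7B to 0.79 for SNORA25, with SNORA62 at 0.76 ± 0.20 closest to the threshold (adjusted p = 0.0585) and called with the replicate block (adjusted p = 0.0118). SNORA65, at 0.41 ± 0.16 (adjusted p = 0.171), was also called with the block (adjusted p = 0.0440).

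The Cajal body RNA SCARNA9, which guides changes on spliceosomal RNA, was the 1 kept probe of 2 in its class. It gave 7.21, 7.24 and 7.38 with the mimic and 6.50, 6.86 and 6.55 with the control mimic, a rise of 0.64 ± 0.12 (adjusted p = 0.0242). The call was lost without any 1 mimic array or control replicate 1. Among spliceosomal RNAs, RNU6ATAC, the catalytic RNA of the minor spliceosome, gave 6.29, 6.36 and 6.40 against 5.55, 5.56 and 5.80. It rose by 0.71 ± 0.11 (adjusted p = 0.0108), with the call lost without any 1 mimic array. RNU11, which helps the minor spliceosome find the start of an intron, gave 5.22, 5.33 and 5.74 against 5.05, 5.26 and 5.97, with no separation and a difference of 0.00 ± 0.24 (adjusted p = 0.997). RNU2-1, of the major spliceosome, was detected on no array.

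Of the other RNAs made from their own genes, RN7SK, which holds the elongation factor P-TEFb inactive, had 2 probes that disagreed. The dimmer gave 5.88, 5.82 and 5.92 with the mimic and 5.06, 5.22 and 5.35 with the control mimic, and rose by 0.66 ± 0.11 (adjusted p = 0.0133). Its call was lost without any 1 mimic array or control replicate 2. The brighter gave 8.64, 8.44 and 8.65 against 8.11, 8.08 and 8.85, with control replicate 3 above the mimic arrays, and was at 0.22 ± 0.20 and not called. Without control replicate 3 it was at 0.48 ± 0.10 and called (adjusted p = 0.0126).

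RN7SL1, the RNA of the signal recognition particle, was the brightest probe of all members. It gave 13.40, 13.27 and 13.28 with the mimic and 13.27, 13.32 and 13.27 with the control mimic, a difference of 0.03 ± 0.09 (adjusted p = 0.893). RPPH1, the catalytic RNA of RNase P, which trims transfer RNA precursors, gave 7.13, 7.19 and 7.16 against 6.23, 6.55 and 6.87. The groups were apart and the difference of 0.61 ± 0.16 was not called (adjusted p = 0.0571), and was called with the replicate number as a block (adjusted p = 0.0401). TERC, the template RNA of telomerase, gave 7.72, 7.68 and 8.11 against 6.91, 7.21 and 7.83. Its groups overlapped through control replicate 3, and the difference was 0.52 ± 0.23 (adjusted p = 0.220), or 0.77 ± 0.14 without that array, which was called (adjusted p = 0.00883).

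SNAR-A1, a small RNA of primates, had the largest difference of all members. It gave 11.54, 11.28 and 11.48 with the mimic and 7.70, 10.41 and 10.29 with the control mimic. The mimic arrays lay above every control, but control replicate 1 was far below the other controls, and the difference of 1.96 ± 0.63 was not called (adjusted p = 0.106). Without control replicate 1 it was 1.08 ± 0.13 and called (adjusted p = 0.0172), and without control replicate 3 it was 2.37 ± 0.59 and called (adjusted p = 0.0277). SNAR-C3 gave 4.60, 4.75 and 4.78 against 4.76, 4.82 and 4.69, close to background, with a difference of -0.05 ± 0.10. SNAR copies are near-identical, so the copy behind a probe is uncertain, and SNAR-E and SNAR-G1 were not detected on any array.

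The low values on control replicate 1 were rare. Of all 18732 kept probes, 4 (0.0214%) fell short of the mean of the other controls by more than 1 log2 unit there, and 2 of them were the members SNAR-A1, at -2.65, and SNORD13, at -2.05. The third named probe was BCYRN1, a small RNA outside the rule that is made in primates by RNA polymerase III, at -1.41. BCYRN1 gave 10.21, 9.94 and 10.25 with the mimic and 8.39, 9.71 and 9.89 with the control mimic, a difference of 0.80 ± 0.35 that was not called (adjusted p = 0.216). The fourth probe had no gene name. On control replicate 3, by contrast, 685 kept probes (3.66%) fell that far short of the other controls, and 2 of the 53 members did, SNORA32 at -1.57 and SNORD36A at -1.36. Against control replicates 1 and 2 alone, 43 members (81.1%, background 22.6%) were higher on every mimic array, and on control replicate 3 the level of 13 members reached that of the lowest mimic array or more.

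**Figure D4:**
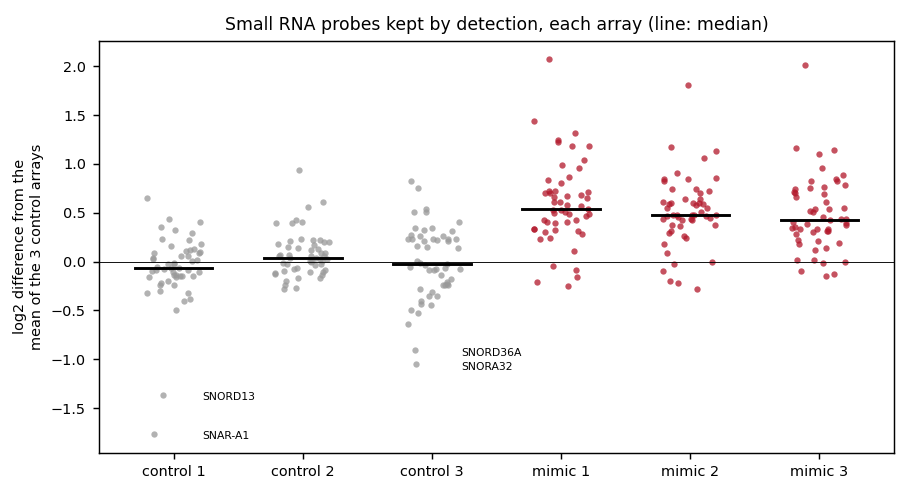
Difference of each kept small RNA probe from its mean over the 3 control arrays, in log2 units, on each of the 6 arrays, with a line at the median. The mimic medians lie above those of the controls, SNAR-A1 and SNORD13 lie far down on control replicate 1, and SNORA32 and SNORD36A on control replicate 3.

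Length and level were similar in called and uncalled members. The median length was 91.5 bases for called members and 92 for kept members that were not called. Across the 53 probes the rank correlation of fold change was -0.06 with length and 0.09 with mean level, given as a description since probes share arrays and families. Of the kept probes, 43 lay within another gene by their RefSeq spans on GRCh38.p14 and 10 did not. Of the former 10 were called higher, with a median of 0.49, and of the latter 2, with a median of 0.56 (background 3.04% called higher).

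The 43 probes lay in 25 host genes, of which 17 encode ribosomal proteins and hold 30 of the probes. Fold changes of host messages were mostly smaller than those of their small RNAs. For 18 hosts a probe was kept, and their median log2 fold change was 0.11, with 12 above 0, 1 called higher and 0 lower (background 3.04% and 3.42%). In 30 of 31 pairs of small RNA and host the small RNA had the higher fold change, by a median of 0.43. This is a description, and the differences between pairs were not tested. Across the pairs the changes were unrelated, with a Pearson correlation of 0.00 and a rank correlation of 0.04 over pairs that share hosts and arrays. Many hosts are among the brightest probes on the array, up to 14.73 where the highest value was 14.82, and the part of signal compression there was not tested.

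RPL4, the host of SNORD16, gave 13.28, 13.30 and 13.31 with the mimic and 13.26, 13.36 and 13.40 with the control mimic. Its groups overlapped, and the difference of -0.04 ± 0.09 contrasts with the 1.17 of its intronic RNA. RPL7A, the host of SNORD36A and SNORD36C, gave 8.48, 8.32 and 7.27 against 8.28, 8.29 and 8.32, a difference of -0.28 ± 0.28 with mimic replicate 3 low. RPL13, the host of SNORD68, gave 9.03, 9.00 and 8.70 against 8.73, 8.69 and 9.05, with overlap and a difference of 0.09 ± 0.14. NOP56 was at 0.33 ± 0.21 and HSPA8, the chaperone gene that holds SNORD14C, at 0.19 ± 0.09, neither called. RPL5, which holds both SNORD21 and SNORA66, was at 0.17 ± 0.19. RPS12, with SNORD101, was at -0.09 ± 0.09. No probe was kept for CEP295, the host of SCARNA9.

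The host called higher was RPL10, which holds SNORA70. It gave 6.18, 6.33 and 6.29 against 5.84, 5.94 and 5.78, a rise of 0.41 ± 0.10 (adjusted p = 0.0467), while SNORA70 was at 0.35 ± 0.12 and not called. The call of RPL10 held in 1 of the 6 cases of leaving out an array, without control replicate 3, and was lost with median scaling, an intensity trend or another background model. Its kept probe, 1 of 2 on the array, was dim beside a median level of 12.5 over the 18 hosts. The probes of RPL7A and RPL13 also lay below that median. How well such probes report the host message was not tested.

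**Figure D5:**
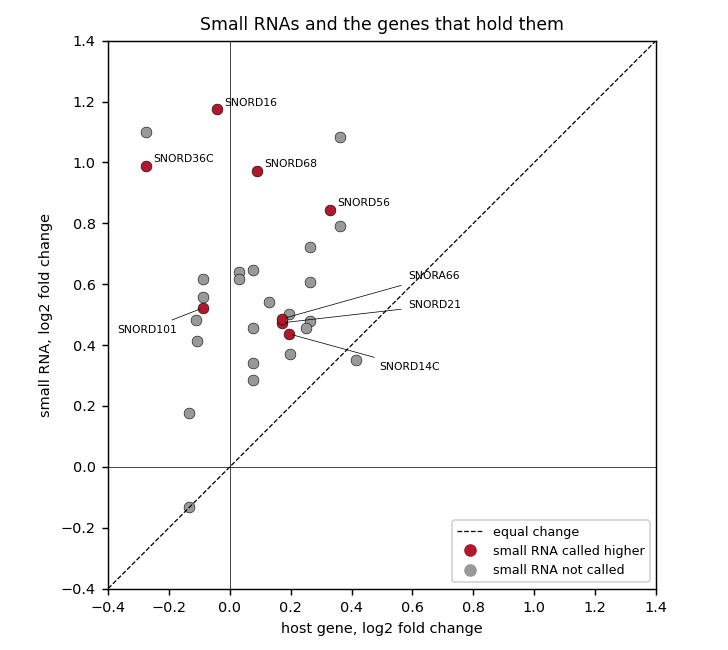
Log2 fold change of 31 small RNAs, vertical axis, against that of the gene that holds them, horizontal axis, each mir-22 mimic minus control mimic. Points lie above the dashed line of equal change for 30 of the 31, and host values stay between -0.28 and 0.41.

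Small RNAs from the same host mostly had similar fold changes. In 11 host genes that held several kept members, 29 in all, the range within a host was narrow for RPL5 (0.47 and 0.49), RPS13 (0.62 and 0.64), HSPA8 (0.44 and 0.50), RPL7A (0.99 and 1.10) and RPS12, whose SNORD101, SNORA33 and SNORD100 lay between 0.52 and 0.62. It was wider for RPL13A, with SNORD34, SNORD33, SNORD35A and SNORD32A between 0.29 and 0.65, and for RPL23A (0.48 to 0.72), TAF1D (0.79 and 1.09) and RPS2 (-0.13 and 0.18). In SNHG1, a noncoding host, SNORD22 was at -0.03 and SNORD31, SNORD30 and SNORD25 between 0.33 and 0.43. No probe of SNHG1 itself was kept.

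Host promoters are shown because ribosomal protein genes and many other hosts are known for starting their transcripts with a run of pyrimidines, a feature that the choice of members did not use. Sequences from RefSeq (GRCh38.p14) run from 50 bases before to 15 bases from the annotated start, which is base 51, on the strand of the gene. Capitals mark a run of at least 5 bases, each C or T, that begins with C within 3 bases of the start, searched on the strand of the gene and at every start listed.
RPL7A, chr9:133348168-133348232, plus strand: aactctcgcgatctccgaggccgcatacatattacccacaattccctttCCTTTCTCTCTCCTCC
RPL13A, chr19:49487558-49487622, plus strand: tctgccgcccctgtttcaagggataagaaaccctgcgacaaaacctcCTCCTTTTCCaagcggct
RPS12, chr6:132814519-132814583, plus strand: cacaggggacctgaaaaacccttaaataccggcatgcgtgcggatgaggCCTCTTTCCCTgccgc
RPL13, chr16:89560632-89560696, plus strand: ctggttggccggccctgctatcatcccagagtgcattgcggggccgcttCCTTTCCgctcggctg
TAF1D, chr11:93741481-93741545, minus strand: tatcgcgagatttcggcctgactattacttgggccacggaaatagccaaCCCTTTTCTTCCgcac
RPL4, chr15:66504841-66504905, minus strand: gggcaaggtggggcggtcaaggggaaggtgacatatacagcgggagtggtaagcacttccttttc
NOP56, chr20:2652582-2652646, plus strand: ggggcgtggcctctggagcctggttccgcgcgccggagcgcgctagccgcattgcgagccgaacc

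A promoter was listed for 19 of the 25 hosts, and 13 of the 19 (68.4%) held such a run, against 16% of the 27305 genes listed. RPL4, NOP56, HSPA8 and CEP295, each with a called small RNA, held none at their listed starts, the last 2 not printed above. RPL7A, RPS12 and RPL13, each with a called small RNA, held a run. RPL13A and TAF1D held runs, and none of their 6 kept small RNAs was called. A match describes these letters and is not evidence of control.

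Proteins that bind, make or trim these RNAs were read from the same fit, by the brightest kept probe of each gene, and their counts stand beside backgrounds of 3.04% called higher and 3.42% called lower. Of 20 measured genes for small nucleolar RNP proteins and their assembly, 0 were called higher and 3 lower, with a median of -0.04. NHP2, a core protein of box H/ACA particles, gave 9.44, 9.47 and 9.61 with the mimic and 10.51, 10.54 and 10.66 with the control mimic. It was lower on every mimic array by -1.06 ± 0.10 (adjusted p = 0.00294), its other probe was also at -1.06, and the call held whichever array was left out. NOLC1, a chaperone of these particles, was at -0.69 ± 0.09 (adjusted p = 0.00799) and lost its call without mimic replicate 1 or 2. ZNHIT6, an assembly factor of box C/D particles, was at -0.53 ± 0.10 (adjusted p = 0.0223) and kept its call without control replicate 3 alone.

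By that probe, no factor that transcribes small RNAs was called. Among 22 measured genes for snRNA transcription and end cleavage 0 were called in either direction (median 0.00), and the same held for 20 genes of RNA polymerase III and its factors (-0.05), 6 of the RN7SK particle (-0.06) and 8 of RNase P and RNase MRP (0.07). SNAPC1, of the complex that binds snRNA promoters, was at 0.32 by its brightest probe (adjusted p = 0.111), while a second, dimmer probe was called higher at 0.51 ± 0.10 (adjusted p = 0.0257), a call that held in 1 of the 6 cases of leaving out an array, without control replicate 3. Without control replicate 3, each of these 4 lists had 1 gene called higher and the polymerase list 1 lower. Of 30 genes listed for the nuclear exosome, tailing and trimming 2 were called higher and 0 lower (median 0.03). They were SSB, which binds the ends of new polymerase III transcripts (0.52 ± 0.10, adjusted p = 0.0237), and LSM3, of the ring that binds RNU6 RNAs (0.44 ± 0.10, adjusted p = 0.0364). The 30 include PALS2 (0.05, not called), which was matched through the older symbol MPP6 and is not part of this machinery. Of 19 proteins of spliceosomal particles 2 were called higher (median -0.03), PRPF31 (0.64 ± 0.12, adjusted p = 0.0206) and SNRPD3 (0.49 ± 0.11, adjusted p = 0.0394). The calls of SSB, LSM3, PRPF31 and SNRPD3 held without control replicate 3 and were lost when any 1 of the other 5 arrays was left out. With the replicate block the exosome list had 4 called higher and the polymerase list 1 called lower. Of 6 measured genes in a list of noncoding hosts of small nucleolar RNAs, which also held the protein-coding TAF1D, none was called (median 0.13).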

How the data were processed

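Per the submitters' processing notes the authors summarised bead intensities with BeadStudio. Per the file headers each deposited array file holds, for each probe, the mean intensity on a linear scale, the SD and number of its beads, and a score for detection from 0 to 1. These intensity values are not normalised. The authors' deposited value table holds normalised intensity values and the probe names, and its 48803 rows were joined to the array files by the ranks of their values over 6 arrays, with 0 ties. Of the probes 28098 had 1 symbol, 13 several and 20692 none. The members matched RefSeq genes (GRCh38.p14) by gene identifier. A host is the shortest gene whose span holds the member. The gene table gives no strand, so strand was not used although it had been planned.

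Values were processed with limma 3.58.1 in R 4.3.3 (neqc, offset 16, negative controls inferred from a detection p of 1 minus the score), which understates changes of dim probes. Probes with a score above 0.99 on at least 3 arrays were tested with lmFit and eBayes, two-sided, with Benjamini-Hochberg adjustment over 18732 probes and a threshold of 0.05. A group without a detected array has only a bound. The fit was tested on simulated data with independent noise of equal spread on every array. Such data hold no array that stands apart and no pairs, so the test does not cover these. The main fit had no replicate block, since the labels do not say that a number marks a shared batch or day. Deviations of same-numbered arrays from their group means correlated at 0.33, 0.14 and 0.43, each above 0.1. The numbers were treated as pairs in an alternative fit alone, from the data and not the labels. Arrays of unlike number correlated at -0.40 to 0.32, with mimic replicate 2 closer to control replicate 1 (0.18) than to control replicate 2, so numbers 1 and 2 are not told apart. The fit with a replicate block is given where it changes a member's call or a count by over 1.5 times.

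Named were all called members, the highest, lowest and brightest kept member of each class, their hosts, and up to 4 called genes per list. Members named beyond that rule were chosen after their values were seen. Members and lists were chosen with earlier results of these data known. Alternatives covered background, normalisation, the deposited table, the filter, variance models, pairing and leaving out each array.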

Additional observations from a re-analysis of the deposited data

How the results depend on the processing

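No alternative called a member lower. The count called higher was 12, and it was 24 with the replicate block, 41 with array quality weights, and between 1 and 31 with each array left out in turn. It lay between 8 and 12 with median scaling, no background correction, another background model, the authors' value table, other filters and an intensity trend, and was 8 both with median scaling and with no filter. The median over kept members, 0.50, was 0.42 with the authors' value table, 0.40 without background correction and 0.33 with a background model that adds a larger offset. The count over all kept probes, 1210, was 4405 with array weights and 134 to 2689 with each array left out. Array weights gave control replicate 3 a weight of 0.14 and the others 0.71 to 2.73. Signs turned for uncalled members near 0. RNU11 was at -0.00303 with the authors' table, -0.0443 with median scaling, -0.00679 without background correction, -0.00774 with the other background model, and from -0.19 to 0.27 with each array left out. RN7SL1 was at -0.0135 with the authors' table and from -0.0164 (without mimic replicate 1) to 0.05002 with each array left out, and SNAR-C3 from -0.0837 to 0.00534 (without mimic replicate 1). The cause was not tested. Over alternatives that kept the 6 arrays, SNORD16, SNORD68, SNORD56, SNORD35B, SNORD36C, SCARNA9, RNU6ATAC and RN7SK (dimmer probe) kept their calls, except SNORD36C with no filter. SNORD101 and SNORA66 lost theirs in 5 of 9, SNORD21 in 3 of 10 (median scaling, intensity trend and no filter) and SNORD14C in 1 of 10 (median scaling). Signals near background limit the 10 members detected on fewer than 6 arrays, SNORD101 and SNAR-C3 among them.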

Other observations

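Replication-dependent histone messages, which also lack a poly(A) tail, were mostly higher with the mimic as well, and a shared cause was not tested. Of 64 such genes on the array 33 were measured, 16 were called higher and 0 lower in limma, and the median log2 fold change was 0.41. The background was 3.04% called higher. Of the 33, 26 were above 0. The mimic arrays lay above every control array for 21 and below every control array for 2 (backgrounds 13.7% and 17.5%). One of the latter was the bright probe of H4C3, at -0.18 ± 0.10 and not called. H4C14 gave 7.30, 7.50 and 7.53 with the mimic and 5.77, 5.90 and 6.11 with the control mimic, and H4C2 gave 6.36, 6.46 and 6.48 against 5.27, 5.12 and 5.17. The rises of H4C14 (1.52), H4C2 (1.25), H4C5 (1.25) and H4C8 (1.43) were called whichever array was left out. Histone genes of a class have almost the same sequence, and a probe may catch several.

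An unnamed probe followed SNAR-A1, SNORD13 and BCYRN1 in being low on control replicate 1. Its log2 values were 9.10, 9.08 and 9.53 with the mimic and 7.75, 9.20 and 9.78 with the control mimic, so it was not higher on the mimic arrays than on control replicates 2 and 3.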
